A study of Homo sapiens with 8 samples.

Results

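The cytosolic ribosomal protein genes were examined in SCC25, an established squamous carcinoma line of the tongue, after knockdown of the transcription factor ETS1 by RNA interference. Members were chosen by symbol, as RPL or RPS followed by digits and at most an A or X, with RPLP0, RPLP1, RPLP2 and RPSA added. The rule found 77 members among the 56638 symbols of the count tables, 46 of the large ribosomal subunit and 31 of the small one. RNA sequencing gave 8 libraries in 4 groups of 2. The groups siRNA control and ETS1 siRNA were transiently transfected with a non-silencing control or with a pool of siRNAs against ETS1. The groups shCON and shETS1 were stable lines that carried a lentiviral control hairpin or the hairpin labelled shETS1_3, a single construct, and were selected with puromycin at 2 µg/ml. Cells of all groups were grown with serum and hydrocortisone at 400 ng/ml. The study's methods describe the siRNA treatments as made on biological replicates. For the shRNA lines neither the labels nor the methods say whether the replicates were separate cultures, so that their p-values measure the spread between these libraries, which may be technical.

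A ribosome is built from ribosomal RNAs and a fixed set of proteins, which make up a small subunit that reads the mRNA and a large subunit that forms the peptide bond. Most of the proteins are needed in equal numbers. The genes of these proteins are known to be expressed at high levels in growing cells and to be regulated together. Most of their mRNAs begin with a C followed by a run of pyrimidines, the 5′ terminal oligopyrimidine tract, which ties their translation and stability to nutrient signalling through mTOR and the RNA-binding protein LARP1. ETS factors bind DNA around a GGAA core, and many ribosomal protein gene promoters hold such a site.

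The sequences at the listed transcription starts are shown because members that moved in opposite directions after the shRNA shared the tract. RefSeq start windows of GRCh38.p14 were matched to 62 of the 77 members. Each line gives 30 bases on the gene's strand, 15 before the listed start and 15 from it on, and capitals mark the longest pyrimidine run (C and T only) that touches the 10 bases on either side of the start.
RPS16: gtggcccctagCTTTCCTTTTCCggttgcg
RPLP1: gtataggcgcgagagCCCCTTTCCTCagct
RPL28: tcgcccctcgCCTTCCTCTTTCCgtctcag
RPS21: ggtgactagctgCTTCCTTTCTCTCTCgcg
RPL31: acaatccttcgcgCTCTTCCTTTCCaactt
RPS12: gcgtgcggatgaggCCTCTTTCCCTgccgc
RPL37A: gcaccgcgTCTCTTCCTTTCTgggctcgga
RPS29: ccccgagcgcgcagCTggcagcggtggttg
The first 4 of these genes fell after the shRNA and the last 4 rose. The run was 12 bases long in RPS16, 11 in RPLP1, 13 in RPL28 and 15 in RPS21, against 12 in RPL31, 11 in RPS12 and 13 in RPL37A. RPS29 had a run of 2 bases at its listed start. On the GRCh38.p14 assembly the RPS16 window lay at chr19:39435935-39435964 on the minus strand, the RPLP1 window at chr15:69452803-69452832 and the RPL31 window at chr2:101002274-101002303, both on the plus strand.

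A run of at least 8 pyrimidines within 10 bases of the start was held by 49 of the 62 members, or 79%, against 15.2% of the 35114 RefSeq windows of the same length. The ETS sequence CCGGAAG, searched on either strand of the 300-base window from 250 bases before the start to 50 after it, was found in 21 members, or 33.9%, against 10.3% of all windows. All RefSeq windows were used without a limit to the genes tested here, so that members and background were not matched for expression. Examples of the match, in capitals, are shown for RPL31 (chr2:101002225-101002253) and RPS21 (chr20:62387029-62387057), a member that rose and a member that fell after the shRNA.
RPL31: tgcctggcgacCCGGAAGttgtacttgca
RPS21: ggtggcgtgacCCGGAAGcgctcgccgag
The shorter core GGAA, which lies inside CCGGAAG, was present in 98.4% of member windows and 95.5% of all windows. After the shRNA the median log2 fold change was 0.47 in the 21 members with CCGGAAG and 0.32 in the 41 without it, and after the siRNA the medians were 0.17 and 0.20. Members with a run of at least 8 pyrimidines had a median of 0.35 after the shRNA and the other 13 members with a window had 0.43. These splits are descriptions, and a match is not a bound site.

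Library totals ranged from 15954616 to 25953213 counts. ETS1 itself was lower in both knockdowns, with counts of 5726 and 3977 (siRNA control) against 299 and 268 (ETS1 siRNA), and 2069 and 1871 (shCON) against 224 and 279 (shETS1). The epithelial keratins KRT5 and KRT14 had at least 65049 counts in every library, while the 7 marker genes of immune, endothelial and stromal cells had at most 18. The 2 pairs of groups also differed in RNA makeup. Structural RNAs without a poly(A) tail, such as RN7SL1, took at most 0.00339% of counts in the siRNA libraries, 5.61% and 6.63% in shCON, and 12.3% and 9.64% in shETS1. With scaling factors computed without the members, these structural RNAs and the mitochondrial genes, the shRNA median of the members was 0.43 with 60 called higher and 6 lower, the same counts as with all genes.

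The summed share of the 77 members was 5.22% and 5.76% of all counts in the siRNA control libraries, against 5.68% and 6.47% after ETS1 siRNA. The second control library thus lay above the first ETS1 siRNA library, and the groups overlapped. In shCON the share was 4.88% and 5.19%, and in shETS1 it was 6.34% and 6.01%. Here both knockdown libraries lay above both control libraries. In bulk RNA a change in the number of cells of a kind and a change in RNA per cell cannot be told apart. Large subunit counts exceeded small subunit counts by a ratio between 1.70 and 1.78 in all 8 libraries.

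The siRNA comparison asked what a short-term loss of ETS1 changed. No ribosomal protein gene was called after the siRNA (0 of 76 tested, edgeR's quasi-likelihood test, Benjamini-Hochberg adjusted p under 0.1), where 3.41% of all 14742 genes tested were (1.13% higher and 2.27% lower). DESeq2 also called 0, of 75 with an adjusted p. At an unadjusted p under 0.05 there were 5 members, among them RPL13, RPS15, RPL18 and RPL10A, against 18.5% of all genes. The smallest adjusted p of a member was 0.222. The fitted changes nevertheless lay on 1 side, since 74 of 76 were above 0 (50.2% of all genes were). Their median was 0.17 on the log2 scale, a 1.12-fold difference, against 0.0018 for all genes. The size rested on single libraries, as the median was 0.065 without ETS1 siRNA replicate 2, where 52 of 76 were above 0, and 0.087 without siRNA control replicate 1, where 64 were. The 2 groups did not overlap in 37 of the 76, all higher in the knockdown, where 25.7% of all genes were higher and 26.2% lower without overlap. No member was called at least 2-fold lower, as 0.651% of all genes were. This count covers members that share libraries, and it is not a set of independent observations. A later fit paired each control library with the knockdown library of the other replicate number, which the main fit did not. It called 5 of 76 members, all higher, where 9.67% of all genes were higher and 12.3% lower.

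RPL13, a large subunit protein, had the largest siRNA difference. It measured 795 and 917 CPM (counts scaled to library size and composition, within each pair of groups) in siRNA control and 1021 and 1147 in ETS1 siRNA. The groups did not overlap, and the log2 fold change was 0.34 ± 0.13 (SE, adjusted p = 0.222). RPS15, a small subunit protein close to the decoding site, had 205 and 261 CPM against 290 and 299, with a log2 difference of 0.34 ± 0.15 (SE, adjusted p = 0.269). RPL28, RPS28, RPL10A of the L1 stalk and RPL18 followed, with log2 differences from 0.30 to 0.33. With an offset for length and GC content RPS15 was at 0.066, RPL18 at 0.069 and RPL13 at 0.23. At the other end RPL6 measured 1183 and 1227 CPM in control and 1084 and 1283 in ETS1 siRNA. The knockdown libraries enclosed the control ones, and the log2 difference was -0.03 ± 0.13 (SE). RPL36A was at -0.01, and RPS24, RPS25, RPL23 and RPL22 lay between 0.02 and 0.03.

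Across the 76 members the siRNA difference followed base composition. Spearman's rho between the log2 fold change and the GC content of the transcripts was 0.67 and Pearson's r was 0.63, over genes that share the same 4 libraries. The same held over all genes, where the median log2 fold change went from -0.17 in the lowest of 5 equal classes of GC content to 0.18 in the highest. Members ranged from 41.8% to 62.4% GC. With the offset the siRNA median of the members was 0.068, and 63 of 76 were above 0. Without ETS1 siRNA replicate 1 the number called was 6 of 76, all higher, among them RPL13, RPL28, RPLP2, RPS12 and RPS19, while 3.17% of all genes were called higher and 6.44% lower. In that fit the single ETS1 siRNA library was assumed to vary like the siRNA control libraries.

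**Figure D1:**
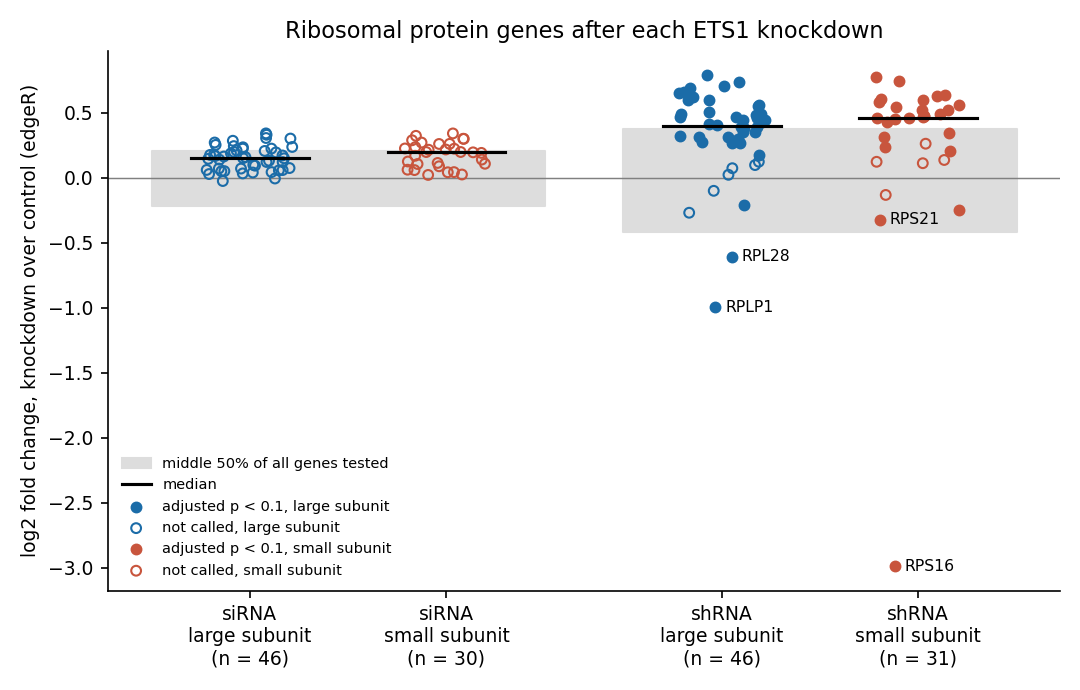
Each point is a ribosomal protein gene, with its log2 fold change over the matching control on the vertical axis, by knockdown and subunit. Filled points passed an adjusted p under 0.1, black lines are medians and grey bands hold the middle 50% of all genes tested. After the siRNA no point is filled and the points lie close together, nearly all of them just above 0. After the shRNA most are filled and higher, with RPS16 far below at -2.99.

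The shRNA comparison asked the same of stable lines. Here 66 of 77 members passed the test, against 60.6% of the 16481 genes tested. The count at an unadjusted p under 0.05 was also 66, against 59.2% of all genes. Of these, 60 were higher in shETS1 (29.7% of all genes were) and 6 were lower (30.9% of all genes). As shares, 85.7% of members were called and 77.9% were called higher. The median log2 fold change was 0.43, a 1.35-fold increase, against 0.00066 over all genes. Groups did not overlap in 65 members with higher values and 8 with lower values, where 38.1% and 38.6% of all genes were so placed. Median CPM over the members was 493 and 521 in shCON and 718 and 682 in shETS1.

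RPL31, a protein at the rim of the peptide exit tunnel, rose the most. It measured 454 and 513 CPM in shCON and 896 and 772 in shETS1, without overlap. The log2 fold change was 0.79 ± 0.09 (SE, adjusted p = 1.22e-06). RPS12, of the small subunit, rose from 660 and 765 CPM to 1269 and 1167, by 0.77 ± 0.09 (SE, adjusted p = 1.38e-06). RPS29, a zinc-binding protein of the small subunit, measured 306 and 360 CPM against 594 and 519, a log2 change of 0.74 ± 0.09 (SE, adjusted p = 2.70e-06). RPL7 rose by 0.73, and the zinc-binding RPL37A and RPL37 rose by 0.70 and 0.69. All 6 had higher values in both shETS1 libraries than in either shCON library. RPL31 overlaps TBC1D8 on the opposite strand, and the use of strand in the counting is not given in the sources used here.

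RPS16 went the other way and was the lowest member by a wide margin. This small subunit protein sends its tail to the tRNA in the peptidyl site. RPS16 lies at chr19:39923777-39926589 on the minus strand (GRCh37), with 5 exons in the annotated transcript and no overlap with another gene's exons. It had 5446 and 5565 counts in shCON and 560 and 754 in shETS1, or 217 and 214 CPM against 24.4 and 29.9. The shETS1 libraries thus held 7.93-fold less RPS16 RNA, which on the log2 scale was -2.99 ± 0.09 (SE, adjusted p = 9.40e-14). Only 66 of the 16481 genes tested had a lower fold change, which places RPS16 in the bottom 0.4%. It was the 1 member at least 2-fold lower, as were 7.78% of all genes. In the siRNA libraries RPS16 measured 597 and 699 CPM against 705 and 807 after the knockdown, a log2 difference of 0.22 ± 0.13 (SE, adjusted p = 0.418). No drop of RPS16 was thus measured in the siRNA pair. The shRNA value of RPS16 lay between -3.14 and -2.86 over the 15 alternatives run, among them each shRNA library left out.

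RPLP1, an acidic protein of the stalk that recruits elongation factors, was next. The gene lies at chr15:69745153-69748544 on the plus strand. It measured 493 and 521 CPM in shCON and 238 and 270.0 in shETS1, without overlap, and fell by 1.00 ± 0.08 (SE, adjusted p = 1.97e-08) on the log2 scale. RPL28, a large subunit protein at chr19:55897300-55914618, measured 228 and 241 CPM against 137 and 170.0, and fell by 0.61 ± 0.09 (SE, adjusted p = 1.76e-05). RPS21, a small protein of the small subunit at chr20:60962159-60963576, measured 285 and 301 CPM against 227 and 241, and fell by 0.32 ± 0.07 (SE, adjusted p = 0.00135). RPS2, which lines the mRNA entry, and RPL8, which lies near the peptidyl transferase centre, also fell, by 0.25 and 0.21, with all shETS1 values below all shCON values. RPL8 is named because it completes the 6 genes that fell, after its value was seen. Without shCON replicate 2 the RPS2 adjusted p was 0.112, and 4 members were called lower. RPL36A measured 7.72 and 7.09 CPM against 6.88 and 5.43 and did not pass (log2 difference -0.27, adjusted p = 0.145), although 4 of 15 alternatives called it lower.

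**Figure D2:**
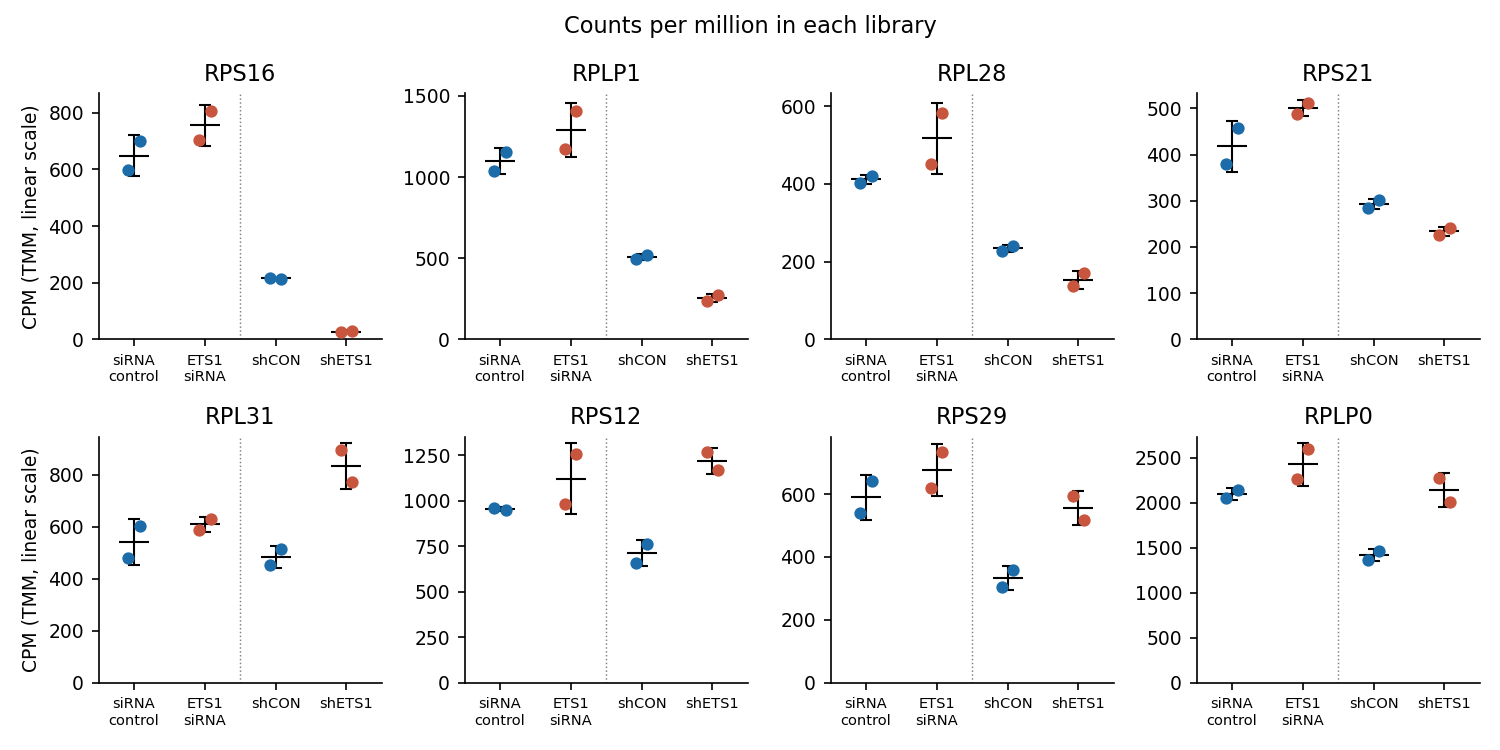
Points are CPM values in each library on a linear scale from 0, for 4 members that fell and 4 that rose after the shRNA, with the mean and SD of the 2 libraries of each group in black. The dotted line parts the siRNA libraries from the shRNA libraries, which were scaled separately. RPS16 drops from 217 and 214 to 24.4 and 29.9, while RPLP0, in the last panel, goes from 1369 and 1466 to 2271 and 2011.

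The 3 proteins of the stalk did not move together after the shRNA. RPLP0, the base on which the stalk is built, rose from 1369 and 1466 CPM to 2271 and 2011, by 0.60 ± 0.09 (SE, adjusted p = 3.04e-05). RPLP2 rose from 426 and 456 CPM to 591 and 564, by 0.39 ± 0.08 (SE, adjusted p = 0.000428). Only RPLP1 of the 3 was lower. After the siRNA the log2 differences were 0.21 for RPLP0, 0.23 for RPLP1 and 0.28 for RPLP2, none of which passed the test.

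RPL5, RPL11, RPS6, RPS19 and RPSA, described here for their known roles, all rose after the shRNA, as did 60 of the 77 members. RPL5 and RPL11, which bind MDM2 when ribosome assembly is disturbed, measured 2308 and 2484 against 3290.4 and 3231 CPM and 1139 and 1255 against 1788 and 1612 CPM. Neither gene's groups overlapped, and the log2 fold changes were 0.44 and 0.51 (adjusted p = 0.000485 and 0.000137). RPS6, the target of S6 kinases, rose by 0.56 ± 0.09 (SE, adjusted p = 4.66e-05), from 675 and 744 CPM to 1114 and 974. RPS19, the gene most often affected in Diamond-Blackfan anaemia, rose from 756 and 813 CPM to 1317 and 1117, by 0.63 ± 0.09 (SE, adjusted p = 1.57e-05). RPSA, also known as the laminin receptor, rose less, by 0.23 ± 0.08 (SE, adjusted p = 0.0226). RPSA lost this call in 4 of 15 alternatives. Its adjusted p was 0.25 without shCON replicate 1, 0.136 without shETS1 replicate 1, 0.157 in a fit of all 8 libraries and 0.234 with scaling by library size alone, where the log2 value was 0.11. The log2 differences of these 5 genes after the siRNA ranged from 0.06 for RPL5 to 0.30 for RPS19, and none passed.

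The subunits were close to each other in both knockdowns. After the shRNA the median log2 fold change was 0.40 over 46 large subunit genes, of which 37 rose and 3 fell, and 0.46 over 31 small subunit genes, of which 23 rose and 3 fell. After the siRNA the medians were 0.15 and 0.20. The large minus small difference of these medians was -0.06 after the shRNA and -0.04 after the siRNA. A related measure, the gap between subunits in median log2 CPM of each library, had a replicate SD of 0.176 (shRNA) and 0.0473 (siRNA). That SD was taken from the variances of both groups, and the gap is not the difference of median fold changes itself. In counts, the ratio of large to small subunit was 1.72 ± 0.004 in shCON and 1.70 ± 0.006 in shETS1 (SD, n = 2). Both shETS1 libraries (1.699 and 1.708) lay below both shCON libraries (1.727 and 1.721). Both ETS1 siRNA libraries (1.749 and 1.745) also lay below both siRNA control libraries (1.783 and 1.754).

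Whether the 2 knockdowns differed was tested directly, by subtracting the siRNA effect from the shRNA effect in 1 fit of all 8 libraries. Of 77 members 25 differed, against 34.8% of all 17190 genes, a share close to the 32.5% of members. In 19 the shRNA effect was the higher (15.1% of all genes) and in 6 the lower (19.7%). The 4 most negative differences were in RPS16 at -3.23 ± 0.18 (SE, adjusted p = 6.21e-06), RPLP1 at -1.25 (adjusted p = 0.000426), RPL28 at -0.96 (adjusted p = 0.00435) and RPS21 at -0.60 (adjusted p = 0.0133). The 4 most positive were RPL7 at 0.66, RPL31 at 0.60, RPL23 at 0.55 and RPL37A at 0.53, with adjusted p from 0.0142 to 0.0476. Over the 77 members the interaction went down as GC content went up (Spearman's rho -0.49). RPL31, at 41.8% the member of lowest GC content, had an interaction of 0.40 with the length and GC offset. The count of 25 rested on single libraries. When each was left out, neither the count nor its closeness to the share of all genes was stable. Each such fit left 1 library in a group. The median interaction of the members was 0.24 with all libraries, against -0.02 over all genes. It ran from 0.15 without siRNA control replicate 2 to 0.32 without ETS1 siRNA replicate 2. RPS16, RPLP1, RPL28, RPS21 and RPL7 passed in every one of the 18 alternative fits, while RPL31, RPL23 and RPL37A lost the call without shCON replicate 1. RPL31 and RPL37A also lost it without siRNA control replicate 2 and without shETS1 replicate 1.

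**Figure D3:**
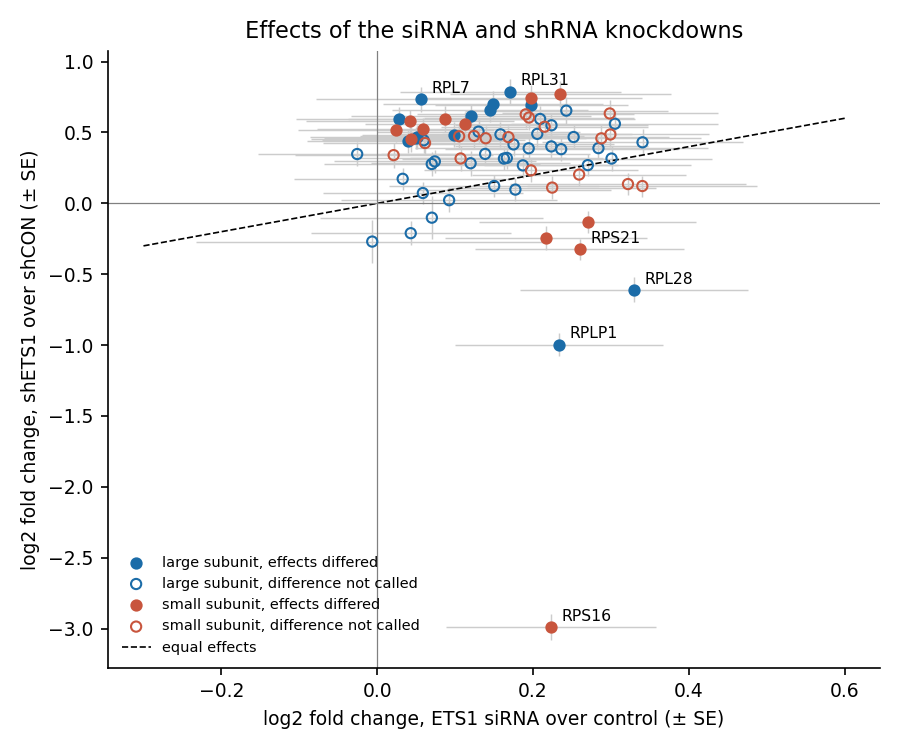
Each of the 76 members tested in both pairs is placed by its log2 fold change after the siRNA (horizontal) and after the shRNA (vertical), with SE bars. Filled points had effects that differed in the fit of all 8 libraries, and the dashed line marks equal effects. RPS16, RPLP1, RPL28 and RPS21 sit below 0 on the vertical axis and above 0 on the horizontal one.

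Near-identical copies limit how far reads can be assigned to these genes. Of the 50-base windows along each coding sequence, the median member had 50.5% that also occurred elsewhere in GRCh37, and 8 members had no window of their own. RPS16 had 16.7% of its windows repeated, RPL28 10.2% and RPS21 5%, so that most of their windows were their own, while RPLP1 had 39.2% and RPS2 78.6%. Of the members that rose most after the shRNA, RPL7 had 99.7%, RPS29 58.8%, RPS12 45.5%, RPL31 35.0%, RPL37 13.6% and RPL37A 4.85%. The values of RPL7, its interaction included, are therefore uncertain. Among other members described here, RPS28 had 100% of its windows repeated, RPL22 88.4%, RPSA 87.6%, RPL6 87.1% and RPLP0 66.1%. Their values carry the same limit. In total 844 pseudogenes of members were listed by symbol, 404 of them without a count in any library, and together they held between 1227 and 2021 counts per library. That was 0.111% to 0.174% of the members' counts. The 3 pseudogenes of RPS16 held at most 6 counts in a library, against the 5446 and 5565 counts of RPS16 itself in shCON. RPSAP52 led the pseudogenes with 384 and 296 counts (siRNA control), 274 and 375 (ETS1 siRNA), 132 and 142 (shCON), and 12 and 11 (shETS1), followed by RPL32P3 and RPL29P19. RPL36A had all of its windows repeated and shares exons with RPL36A-HNRNPH2, so that its values are uncertain. RPL17 and RPS10 likewise overlap readthrough genes on their strand.

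The lists that follow were put together with earlier results of these data known. Ribosomal proteins that the symbol rule leaves out include FAU, which encodes a ribosomal protein fused to a ubiquitin-like protein, and GNB2L1, the scaffold protein RACK1 of the small subunit. FAU rose by 0.31 and GNB2L1 by 0.39 after the shRNA (adjusted p = 0.00321 and 0.00125), and neither passed after the siRNA. Of 9 paralogues or relatives 8 were tested after the shRNA, and 6 rose. RPL3L rose by 1.07 from few counts (21 and 34 against 60 and 49), RPL36AL by 0.79, RPS27L by 0.42, RSL24D1 by 0.37, RPL7L1 by 0.31 and RPL26L1 by 0.28. RPL39L fell by 0.72, RPL22L1 did not pass (log2 difference 0.13), and RPL10L was below the filter. After the siRNA only RPS27L of the 8 passed, rising by 1.30 (adjusted p = 0.0243).

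Of 45 ribosome biogenesis factors 28 fell and 3 rose after the shRNA, with a median log2 fold change of -0.37. Over all genes 30.9% fell and 29.7% rose, and these shares are also the background of the other lists. TCOF1, which promotes ribosomal RNA transcription, had 3115 and 2925 counts in shCON and 652 and 827 in shETS1, and fell by 1.95 ± 0.09 (SE, adjusted p = 8.25e-12). Nucleolin (NCL), LYAR and NOLC1 fell by 1.11, 1.03 and 0.91. After the siRNA the median was -0.20, and 2 of 45 fell, NOLC1 by 0.60 and the helicase DDX21 by 0.60 (adjusted p = 0.0715 and 0.0742), where 2.27% of all genes fell. That count ran from 0 to 13 over the alternatives, and was 0 without siRNA control replicate 1 or ETS1 siRNA replicate 2, 1 without siRNA control replicate 2 and 5 without ETS1 siRNA replicate 1. Genes of RNA polymerase I and of its initiation machinery serve the making of the ribosomal RNA precursor. Their median was -0.13 after the shRNA, with 6 of 14 lower and 0 higher, led by TAF1C at -0.63. After the siRNA POLR1B fell by 0.68 (adjusted p = 0.0786), the 1 of 14 that passed.

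Proteins of the mitochondrial ribosome, a separate particle, were called in both directions after the shRNA. Of 76 tested 19 rose and 15 fell (29.7% and 30.9% of all genes), and the median was -0.01. With scaling by library size alone 5 rose and 33 fell with a median of -0.13, where the median of all genes was -0.12, and without shCON replicate 1 the counts were 7 and 14. MRPL12 fell by 1.91, MRPS6 by 1.05 and MRPL4 by 0.80, while MRPL33 rose by 0.79. After the siRNA only MRPL42 passed, lower by 0.60. Other translation genes, most of them known to carry the same tract, were mixed. Of 16 tested 9 rose and 4 fell after the shRNA, with a median of 0.30. Elongation factors EEF1A1 and EEF1B2 rose by 0.78 and 0.51, while HNRNPA1 and the poly(A)-binding protein PABPC1 fell by 0.73 and 0.70. None of the 16 passed after the siRNA, and EIF3A had the smallest adjusted p at 0.161.

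Among the host genes of small nucleolar RNAs 8 of 13 rose and 2 fell after the shRNA (29.7% and 30.9% of all genes). EPB41L4A-AS1 rose by 0.91, SNHG5 by 0.77 and ZFAS1 by 0.56, and SNHG17 fell by 0.87, while none passed after the siRNA. Known regulators of these pathways were split, with 5 of 15 higher and 5 lower after the shRNA, close to the 29.7% and 30.9% of all genes. The number called higher ran from 1, without shCON replicate 1 or with library size alone, to 9, and was 3 without shCON replicate 2 or shETS1 replicate 2. LARP1, the protein that binds the tract, had 4689 and 3902 counts in shCON and 1637 and 2345 in shETS1, and fell by 1.03 ± 0.11 (SE, adjusted p = 4.68e-07). MYC, an activator of ribosome production, fell by 0.75, and the translation inhibitor EIF4EBP1 by 0.90. DEPTOR, an inhibitor of mTOR, rose by 2.96, from 67 and 91 counts to 545 and 620. GABPA, an ETS factor, fell by 0.72 after the siRNA (adjusted p = 0.0703), the 1 regulator that passed there, and rose by 0.17 after the shRNA (adjusted p = 0.0647).

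**Figure D4:**
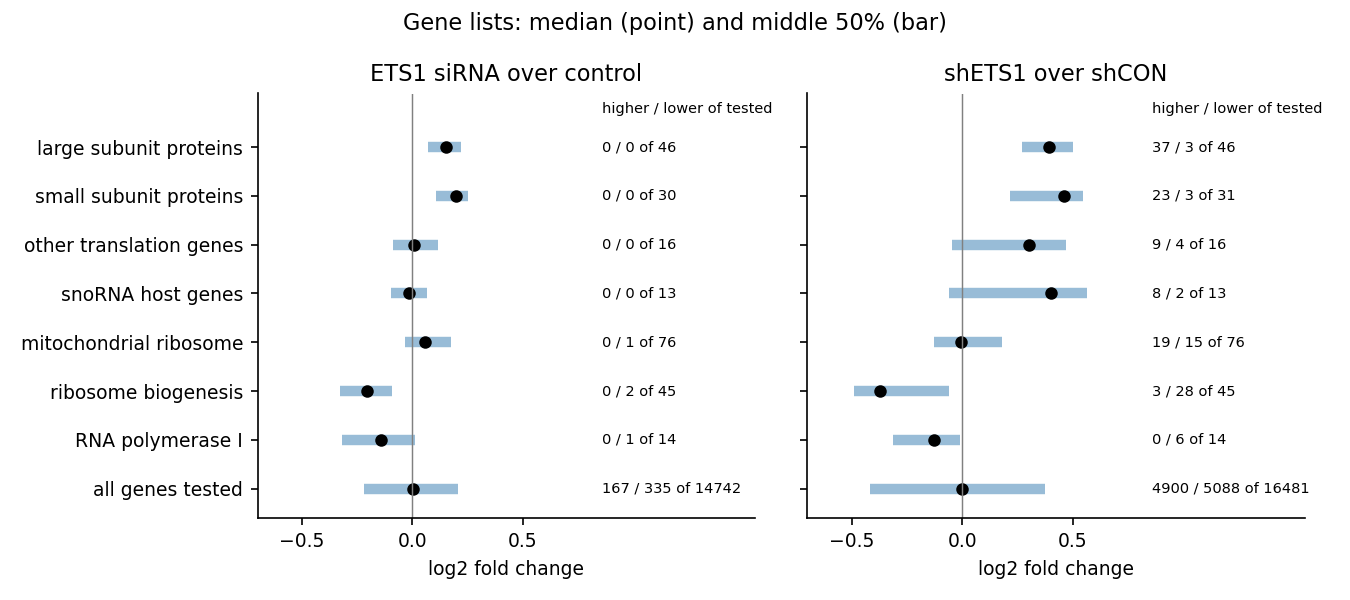
For each gene list the point is the median log2 fold change and the bar holds the middle 50% of its genes, after the siRNA (left) and the shRNA (right). The figures at the right of each panel give the numbers called higher and lower of those tested. The ribosomal protein bars lie above 0 and the biogenesis bars below 0 in both panels, although no ribosomal protein gene passed the test after the siRNA.

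The members were short genes, with a median transcript length of 748 bases, and 71 of 77 were in the shortest of 5 equal length classes of the genes tested after the shRNA. In that class 35.4% of genes were higher and 24.4% were lower, with a median log2 fold change of 0.10, against 0.43 for its 71 members. In the longest class the median was -0.12. Within the members, Spearman's rho of the shRNA change was -0.09 with length, -0.26 with GC content and 0.36 with CPM in shCON. With an offset for length and GC content the shRNA median was 0.31, and 60 members were called higher and 10 lower. How far length or base composition entered the shRNA values was not tested beyond this offset.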

How the data were processed

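RNA was sequenced in 8 libraries, 2 in each of 4 groups taken from the labels. Per the labels and the study's methods, the authors mapped 50-base single-end reads to GRCh37 with TopHat2 2.1.1 and Bowtie2 2.2.6 and deposited raw counts per gene from featureCounts 1.5.0 (versions from the submitters' processing notes). The treatment of strand and of reads with several matches is not given in the sources used here. All per-sample columns were used.

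Each knockdown was tested against the control of the same delivery method by edgeR 4.0.16 (R 4.3.3), two-sided quasi-likelihood F-test, TMM scaling, filterByExpr, group as the only term. P-values were adjusted (Benjamini-Hochberg) over all genes tested and called under 0.1, the threshold of the study. SE was the fold change divided by the square root of F. The interaction was fitted over all 8 libraries. Total counts per library were 15954616 to 25953213, and common dispersion was 0.0192 in the siRNA and 0.00402 in the shRNA libraries, so that the siRNA pair was less precise. CPM was scaled within each table. Replicates differed by more than counting noise (chi-square per degree of freedom from 6.23 to 23.2 over all genes). Over the members, which have high counts, it ran from 37.5 to 162.

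DESeq2 1.42.0, other scalings and filters, a length and GC offset, a replicate block and each library left out were alternatives. Length, GC content and exons came from GENCODE v44lift37, and every member had a length. Start windows came from RefSeq (GRCh38.p14) by symbol. Scripts were tested on simulated data in which some genes were given a log2 change of 1. Of the changed genes tested, 75.8% were recovered for the siRNA, 78.7% for the shRNA and 55.5% for the interaction. Of the simulated calls, 18.9% were false for the siRNA, 4.32% for the shRNA and 8.62% for the interaction. Recovery of smaller changes, such as the siRNA median of the members, was not tested. The members, lists and naming rule (known roles, the 6 highest and 6 lowest members per knockdown, the 4 highest and 4 lowest interactions, members below a filter, up to 4 genes per other list, the 3 pseudogenes of highest count) were chosen with earlier results of these data known. Some genes that the rule names are not reported here.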

Additional observations from a re-analysis of the deposited data

Results flagged for a closer look

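The shRNA and siRNA effects were compared in 1 fit (edgeR, adjusted over all genes), and 25 members differed, against 34.8% of all genes. RPS16 differed by -3.23, RPLP1 by -1.25, RPL28 by -0.96 and RPS21 by -0.60 on the log2 scale, all lower after the shRNA. RPL7 differed by 0.66, RPL31 by 0.60, RPL23 by 0.55 and RPL37A by 0.53, higher after the shRNA. For RPS16, RPLP1, RPL28 and RPS21 every shETS1 library was below every shCON library and every ETS1 siRNA library was above every siRNA control library. The shRNA libraries also held 5.61% to 12.3% structural RNA, against at most 0.00339% in the siRNA libraries, and method, library makeup and knockdown cannot be told apart here.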

How the results depend on the processing

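Leaving out 1 library at a time gave 0 to 6 members called after the siRNA, 57 to 67 after the shRNA and 5 to 40 with an interaction. The siRNA median ran from 0.065 to 0.24 in the same fits and the shRNA median from 0.35 to 0.49, the lowest without ETS1 siRNA replicate 2 and without shETS1 replicate 1. It was 0.30 with library size scaling alone, which moved the median of all genes to -0.12 and the calls over all genes to 22% higher and 38% lower, and 0.31 with the length and GC offset. Against 25 interactions, 39 were called among protein-coding genes with at least 1 TPM (22.9% of all genes higher, 24.8% lower). With the length and GC offset 53 were called, 48 higher and 5 lower (22.6% and 19.8% of all genes). At an adjusted p under 0.05 there were 15, for which the share over all genes was not computed. The replicate numbers did not pair the samples: same-numbered deviations correlated at -0.57 (siRNA) and -0.13 (shRNA). Over the members alone these correlations were -0.71 and -0.16. The main fits held no pairing term. With the replicate block 0, 63 and 13 members were called after the siRNA, after the shRNA and for the interaction. All genes called higher and lower were 0.149% and 0.509% (siRNA), 27% and 28.7% (shRNA), and 10.1% and 14.7% (interaction). A crossed pairing, added after the same-numbered correlation was seen, called 5, 72 and 37. All genes called higher and lower were then 9.67% and 12.3% (siRNA), 32.6% and 33.7% (shRNA), and 19.5% and 24% (interaction).

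Over all members tested, up to 22 changed sign after the siRNA (without ETS1 siRNA replicate 2), 11 with the offset and 10 without siRNA control replicate 1, and up to 6 after the shRNA (library size alone). None of those had passed the test. Of the members named here, those that changed sign after the siRNA with the offset were RPS24 (-0.011), RPS25 (-0.034), RPS2 (-0.019) and RPL23 (-0.017). RPL36A turned to 0.0016 without a filter, 0.0067 with the block and 0.012 with crossed pairing. With library size scaling RPS15 was -0.0033 after the shRNA. Leaving out a library turned the siRNA sign of RPL22 (-0.15 to 0.19), RPL11 (-0.015 to 0.26), RPL5 (-0.080 to 0.19), RPS24 (-0.092 to 0.13), RPS25 (-0.090 to 0.13), RPL6 (-0.16 to 0.10), RPL23 (-0.10 to 0.14), RPL37A (-0.011 to 0.33), RPL7 (-0.11 to 0.20), RPS6 (-0.022 to 0.24) and RPL36A (-0.26 to 0.29). These are the named members only.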
